A study of Mus musculus with 16 samples.

Results

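The 3 growth arrest and DNA damage-inducible 45 genes (*Gadd45a*, *Gadd45b* and *Gadd45g*), *Trp53*, which encodes p53, and 6 genes that p53 is known to switch on (*Cdkn1a*, *Mdm2*, *Ccng1*, *Sesn1*, *Trp53inp1* and *Btg2*) were examined in brown adipose tissue (BAT) of mice whose thermogenic adipocytes lack OPA1. These 10 genes are part of the 51060 genes to which the transcripts of the deposited files were joined. They were selected on their measured counts and TPM in OPA1 BKO against WT mice, to set *Gadd45a* beside its paralogs and beside p53 targets. Their difference between the genotypes is therefore described with values and overlap, without a test, and tests are given only for measures that this choice did not use. All 10 passed the filter on low counts that left 15632 genes for testing.

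Bulk RNA sequencing of BAT covered 16 mice at 7 weeks of age, with 4 per combination of genotype and sex, and asked which transcripts differ when the mitochondrial fusion protein OPA1 is missing from thermogenic adipocytes. OPA1 BKO mice were homozygous for a floxed *Opa1* allele and carried Cre under the *Ucp1* promoter, and WT mice were littermates with the floxed allele and without Cre. All were on a C57Bl/6J background, ate regular chow ad libitum and lived at ambient temperature. Cre under this promoter acts in cells that express *Ucp1*, so vascular, immune and stromal cells of the tissue should have kept *Opa1*. The level of *Opa1* by cell type was not measured. In whole tissue, fewer cells of a type and less RNA per cell cannot be told apart.

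GADD45 proteins are small nuclear proteins without known enzymatic activity. They bind partners such as PCNA, the cyclin B-CDK1 complex and the kinase MAP3K4, and so link stress to growth arrest, DNA repair and MAP kinase signaling. *Gadd45a* is known both as a p53 target and as a gene switched on by amino acid shortage and the integrated stress response (ISR), while *Gadd45b* and *Gadd45g* are better known as genes that respond to cytokines and hormones. p53 itself is controlled mainly by the stability of its protein, which MDM2 limits, so the mRNA of p53 says little about its activity, and the mRNA levels of its targets are the usual transcript readout.

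The libraries held between 13607283 and 23114534 estimated counts each, which set the counting error of the low genes. The targeted gene was examined to check the labels. With counts scaled to a common library total (CPM), WT mice had 184 ± 18.3 CPM of *Opa1* and OPA1 BKO mice 26.1 ± 7.32 CPM (SD, n = 8), with no overlap. Transcripts of the mitochondrial genome took 26.7% ± 2.42 of the counts in WT and 6.76% ± 1.55 in OPA1 BKO mice (SD, n = 8). CPM are therefore given after TMM normalization, which centers the difference of the median gene near 0 (0.01 on the log2 scale). With library size alone that median was 0.57 and with limma on log2(TPM + 0.5) it was 0.87, so each fold below is a difference relative to the median gene. The labels name no litters or batches. The p-values set a difference against the spread between these mice, which were treated as independent, and the labels cannot show that they were.

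The stretches before the transcription start are shown for the 3 *Gadd45* genes and for the targets *Cdkn1a* and *Mdm2*, since these differ in how their levels compared between the genotypes. They were taken from RefSeq on GRCm38.p6, which held an entry for 9 of the 10 genes and none for *Trp53inp1*. Up to 250 bases before the start are printed 5′ to 3′ in the direction of the gene, without bases that lie in an annotated UTR. Capitals mark a p53 half-site (the degenerate 10-base consensus, which is its own reverse complement) or the ATF4-type composite motif TGATGNAA, searched on both strands.
Gadd45a (chr6:67037408-67037657, minus strand): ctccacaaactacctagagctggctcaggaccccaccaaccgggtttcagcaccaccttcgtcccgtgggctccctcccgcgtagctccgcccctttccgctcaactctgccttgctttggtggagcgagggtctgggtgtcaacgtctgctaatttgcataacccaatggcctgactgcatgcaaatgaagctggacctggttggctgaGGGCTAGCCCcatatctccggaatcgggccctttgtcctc
Gadd45b (chr10:80929841-80930072, plus strand): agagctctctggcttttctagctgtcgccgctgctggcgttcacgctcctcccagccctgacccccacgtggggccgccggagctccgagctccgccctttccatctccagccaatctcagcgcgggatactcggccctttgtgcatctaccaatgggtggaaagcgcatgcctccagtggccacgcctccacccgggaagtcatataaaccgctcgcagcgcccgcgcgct
Gadd45g (chr13:51846425-51846674, plus strand): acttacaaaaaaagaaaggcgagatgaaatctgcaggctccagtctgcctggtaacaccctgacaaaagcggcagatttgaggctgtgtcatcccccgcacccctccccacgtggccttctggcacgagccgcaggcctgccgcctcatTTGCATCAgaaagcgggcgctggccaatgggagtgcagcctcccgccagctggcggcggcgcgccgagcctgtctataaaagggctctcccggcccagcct
Cdkn1a (chr17:29090729-29090978, plus strand): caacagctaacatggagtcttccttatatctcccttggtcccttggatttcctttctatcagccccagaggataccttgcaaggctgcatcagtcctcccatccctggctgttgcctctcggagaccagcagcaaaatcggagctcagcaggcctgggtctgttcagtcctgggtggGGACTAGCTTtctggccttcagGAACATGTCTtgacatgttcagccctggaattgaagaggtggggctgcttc
Mdm2 (chr10:117710759-117711008, minus strand): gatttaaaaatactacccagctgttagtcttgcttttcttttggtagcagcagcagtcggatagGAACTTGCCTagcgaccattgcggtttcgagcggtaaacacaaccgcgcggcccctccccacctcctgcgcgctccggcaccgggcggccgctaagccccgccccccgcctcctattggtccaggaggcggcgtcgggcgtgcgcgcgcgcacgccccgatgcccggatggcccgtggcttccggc
Of the 11 windows of these 9 genes 6 held a p53 half-site, each from another gene (*Gadd45a*, *Trp53*, *Cdkn1a*, *Mdm2*, *Ccng1* and *Sesn1*), compared with 7.13% of the 32851 promoters of the table. The genes were picked largely as known p53 targets, so nothing is read from this share. The search covered all 250 bases of a window, UTR included. The *Trp53* window lies before the annotated span of *Trp53* and overlaps an annotated UTR of another gene, which need not cover all of it. *Cdkn1a* has 2 RefSeq starts, and the further upstream of them held 2 half-sites, GGACTAGCTT and GAACATGTCT. That start lies 2790 bases before the start of transcript *Cdkn1a*-201, which carried nearly all *Cdkn1a* signal here. *Gadd45g* alone of the 9 held TGATGNAA, as TTGCATCA on the printed strand, a motif found in 3.45% of all promoters. The *Gadd45a* window held the half-site GGGCTAGCCC, at -40 to -31 from the RefSeq start. These bases lie inside the annotated span of *Gadd45a*, which reaches 67037457, so they are not upstream of every annotated start. The *Gadd45b* window held neither motif. The well-known p53 element of *Gadd45a* lies in an intron, outside the window. The matches did not overlap each other. A match says only that these letters are present, and no binding was measured.

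Of the GADD45 family, *Gadd45a* was far higher in OPA1 BKO mice, while the values of both paralogs overlapped between the genotypes. *Gadd45a* (ENSMUSG00000036390.8, minus strand of chromosome 6 from 67035096 to 67037457 on GRCm38) was at 2.27, 3.43, 3.69 and 2.52 CPM in the WT females and at 2.06, 2.51, 3.43 and 3.04 CPM in the WT males. It was at 100, 116, 152 and 121 CPM in the OPA1 BKO females and at 98.2, 115, 99.7 and 94.8 CPM in the OPA1 BKO males. All OPA1 BKO mice were thus far above all WT mice, and the groups were as tight within each sex as over both. The log2 fold was 5.28 ± 0.134 (SE), a 39-fold higher level, with 5.36 ± 0.19 in females and 5.20 ± 0.192 in males. Only 14 of the 15632 genes tested had a larger log2 fold. The counts behind these values were 27 to 59 per WT mouse and 1641 to 3132 per OPA1 BKO mouse.

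*Gadd45b* (ENSMUSG00000015312.9, plus strand of chromosome 10 from 80930073 to 80932204), which is known for its induction by inflammatory cytokines, was low in both genotypes. It was at 1.93, 2.26, 2.81 and 1.88 CPM in WT females and at 1.53, 2.01, 1.68 and 0.761 CPM in WT males. With *Opa1* deleted, it was at 1.18, 3.11, 2.02 and 3.83 CPM in females and at 4.29, 2.24, 8.21 and 1.80 CPM in males. The genotypes overlapped, with 4 of 8 OPA1 BKO mice above all WT mice and the highest value in OPA1 BKO male 3. The log2 fold was 0.81 ± 0.353 (SE), ranging from 0.51 to 0.97 when each mouse in turn was left out, and it was 0.20 ± 0.449 in females and 1.45 ± 0.466 in males.

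*Gadd45g* (ENSMUSG00000021453.2, plus strand of chromosome 13 from 51846678 to 51848468) was the abundant family member in WT tissue. It was at 43.5, 84.0, 127 and 84.6 CPM in WT females and at 109, 132, 36.8 and 82.2 CPM in WT males. The OPA1 BKO mice had values of 105, 91.0, 93.6 and 53 CPM in females and 54.2, 126, 94.6 and 56.6 CPM in males. The ranges of the genotypes overlapped, and no OPA1 BKO mouse lay outside the WT range. The log2 fold was -0.05 ± 0.263 (SE). The sign depended on the setting, since the value was 0.01 without the pair of mice with the most muscle transcripts, and 0.51 with library size alone, where the median gene was at 0.57.

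**Figure D1:**
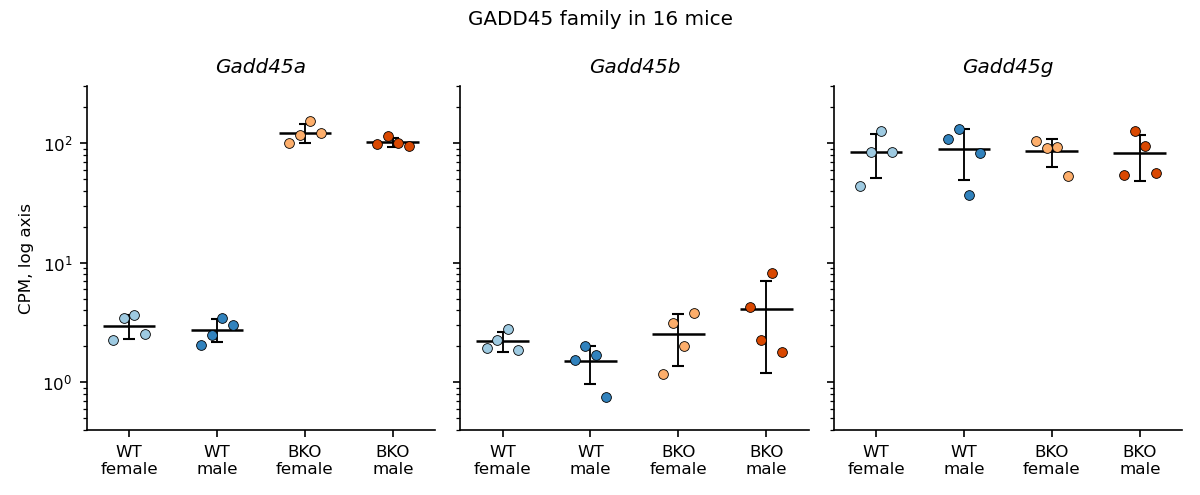
CPM of the 3 GADD45 genes on a log axis, by genotype and sex, with 1 point per mouse, horizontal lines for the mean and bars for the SD (n = 4). *Gadd45a* lay between 2.06 and 3.69 CPM in WT mice and between 94.8 and 152 CPM with the deletion, whereas the genotypes overlapped for *Gadd45b* and *Gadd45g*.

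Because TPM divide by transcript length, the 3 paralogs could be compared within a mouse. *Gadd45g* made up 94.4% ± 3.27 of the summed TPM of the family in WT mice and *Gadd45a* only 3.74% ± 2.54 (SD, n = 8). In OPA1 BKO mice *Gadd45a* made up 54.5% ± 7.87 and *Gadd45g* 43.9% ± 8.0 (SD, n = 8). The share of *Gadd45a* was between 1.81% and 9.72% in WT and between 44.8% and 66.5% in OPA1 BKO mice. *Gadd45b* stayed a small part of the family, at 1.88% ± 0.968 in WT and 1.56% ± 1.06 in OPA1 BKO mice (SD, n = 8). These shares rest on ratios within a mouse and do not move with the scaling between mice.

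The *Gadd45a* signal came from the coding transcript. *Gadd45a*-201 held 85.3% ± 4.30 of the TPM of the gene in OPA1 BKO mice (SD, n = 8), and the retained-intron transcript *Gadd45a*-204 held 10.1% ± 3.11. In WT mice *Gadd45a*-201 held 69.0% ± 19.6, at few counts. Exons of *Gadd45a* overlap those of E230016M11Rik on the opposite strand, and 17.0% of the 31-base words of *Gadd45a* also occur in that gene. A stranded kit was used, but use of the strand in counting is not given, so reads of the pair may not be told apart. E230016M11Rik was listed with 10 to 37 counts in every mouse, against at least 1641 for *Gadd45a* in OPA1 BKO mice. In WT mice it had 15 to 24 counts, beside 27 to 59 for *Gadd45a*. Reads given to the wrong gene could thus be a larger part of the WT level, on which the fold and the family share rest. This was not tested.

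*Trp53* (ENSMUSG00000059552.13, plus strand of chromosome 11 from 69580359 to 69591873) was higher in OPA1 BKO mice, with a larger difference in the males. It was at 22.1, 24.5, 24.6 and 23.6 CPM in WT females and at 20.4, 17.7, 25.8 and 19.2 CPM in WT males. It was measured in OPA1 BKO mice at 23.3, 26.4, 28.0 and 30.2 CPM in females and at 38.4, 40.1, 52.9 and 38.1 CPM in males. All 4 OPA1 BKO males were above all other mice, while the OPA1 BKO females overlapped the WT mice. The log2 fold was 0.61 ± 0.137 (SE) over both sexes, 0.19 ± 0.127 in females and 1.03 ± 0.128 in males. Coding transcripts carried most of the signal in OPA1 BKO mice, with 44.0% ± 11.5 of the TPM on *Trp53*-203 and 26.6% ± 9.73 on *Trp53*-201 (SD, n = 8). Although 10.2% of its 31-base words also occur in other genes, chiefly the pseudogene Trp53-ps, the latter was listed at 0 counts in every mouse.

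*Cdkn1a* (ENSMUSG00000023067.14, plus strand of chromosome 17 from 29090976 to 29100727) encodes the CDK inhibitor p21, the classic p53 target in growth arrest. It was at 153, 119, 160 and 292 CPM in WT females and at 85.9, 173, 67.1 and 76.4 CPM in WT males. OPA1 BKO mice had it at 181, 234, 228 and 178 CPM in females and at 195, 279, 215 and 229 CPM in males. The highest of all 16 mice was WT female 4, so the genotypes overlapped over both sexes and in females, whereas every OPA1 BKO male was above every WT male. The log2 fold was 0.69 ± 0.238 (SE), with 0.18 ± 0.289 in females and 1.19 ± 0.293 in males. *Cdkn1a*-201 held 93.6% ± 1.63 of the TPM of the gene in WT and 95.0% ± 1.44 in OPA1 BKO mice (SD, n = 8), so the same transcript was measured in both. The spread among WT mice was wide, at 141 ± 73.2 CPM (SD, n = 8), against 218 ± 33.1 CPM with the deletion. Exons of *Cdkn1a* overlap those of AC167363.2 on the opposite strand, and 9.78% of its 31-base words also occur in other genes, chiefly AC167363.2. Reads of this pair may not be told apart, and AC167363.2 was not analysed here.

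*Mdm2* (ENSMUSG00000020184.15, minus strand of chromosome 10 from 117688875 to 117710758) encodes the ubiquitin ligase that marks p53 for degradation and is itself a p53 target. It was at 30.7, 40.9, 39.7 and 37.4 CPM in WT females and at 44.3, 42.0, 38.4 and 37.8 CPM in WT males. The values in OPA1 BKO mice were 46.3, 42.3, 45.1 and 49.3 CPM in females and 53.4, 57.6, 59.0 and 50.5 CPM in males. The genotypes did not overlap within either sex, and over both sexes 7 of 8 OPA1 BKO mice were above all WT mice. The difference was small but tight, with a log2 fold of 0.37 ± 0.0666 (SE), 0.30 ± 0.0926 in females and 0.44 ± 0.0927 in males. The coding *Mdm2*-201 held 33.6% ± 11.5 of the TPM of the gene in WT and 43.7% ± 11.7 in OPA1 BKO mice (SD, n = 8). The retained-intron transcript *Mdm2*-204 held 25.3% and 21.7%, and *Mdm2*-209, annotated for nonsense-mediated decay, 29.6% and 22.4%.

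*Trp53inp1* (ENSMUSG00000028211.11, plus strand of chromosome 4 from 11156431 to 11174379) encodes a stress protein that acts with p53 in apoptosis and in autophagy. It was at 29.1, 14.1, 13.3 and 18.2 CPM in WT females and at 7.17, 20.5, 10.3 and 8.65 CPM in WT males. With *Opa1* deleted, it was at 63.1, 31.1, 52.5 and 26.2 CPM in females and at 41.2, 43.4, 27.5 and 36.1 CPM in males. Of the 8 OPA1 BKO mice 6 were above all WT mice, and only WT female 1 reached into their range. The log2 fold was 1.43 ± 0.246 (SE), next to that of *Gadd45a* the largest of the 10 genes under the TMM, library size and TPM scalings. The coding *Trp53inp1*-201 held 52.1% ± 35.8 of the TPM of the gene in WT mice, over a range of 0.36% to 100%. In OPA1 BKO mice it held 67.5% ± 6.19 (SD, n = 8). The noncoding *Trp53inp1*-202 held 47.4% ± 36.4 in WT and 30.1% ± 5.43 in OPA1 BKO mice.

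The other 3 targets overlapped between the genotypes, with log2 folds from -0.19 to 0.17. *Ccng1* (ENSMUSG00000020326.7, chromosome 11 from 40748552 to 40755311) encodes cyclin G1, which takes part in the feedback on p53. Its lowest, median and highest values were 103, 144 and 184 CPM in WT mice and 134, 149 and 236 CPM with the deletion. The groups overlapped, and the top 2 values, 236 and 212 CPM, came from OPA1 BKO male 1 and OPA1 BKO female 2. These mice also had the most counts for skeletal muscle markers. Without both of them, an alternative chosen after seeing the data, the log2 fold went from 0.17 ± 0.138 (SE) to -0.01. Leaving out the 2 highest OPA1 BKO mice lowers the fold in any case, so nothing about muscle is read from it.

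*Sesn1* (ENSMUSG00000038332.13, chromosome 10 from 41809935 to 41908424) encodes sestrin 1, which restrains mTORC1 signaling. It was at 13.5, 15.6 and 19.3 CPM (lowest, median, highest) in WT mice and at 10.4, 14 and 18.7 CPM with the deletion, with 3 of 8 OPA1 BKO mice below all WT mice. Its log2 fold was -0.19 ± 0.104 (SE) with TMM, and the value turned to 0.37 with library size alone and to 0.70 with limma on TPM, both below the median gene of the same scaling. *Btg2* (ENSMUSG00000020423.6, chromosome 1 from 134075170 to 134079120) encodes an antiproliferative protein that is also an immediate early gene product. It was at 29.1, 39.6 and 87.6 CPM in WT mice and at 30.8, 48.3 and 71.1 CPM with the deletion, and no OPA1 BKO mouse lay outside the WT range. Its log2 fold was 0.12 ± 0.230 (SE) over both sexes, -0.45 ± 0.258 in females and 0.69 ± 0.260 in males.

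**Figure D2:**
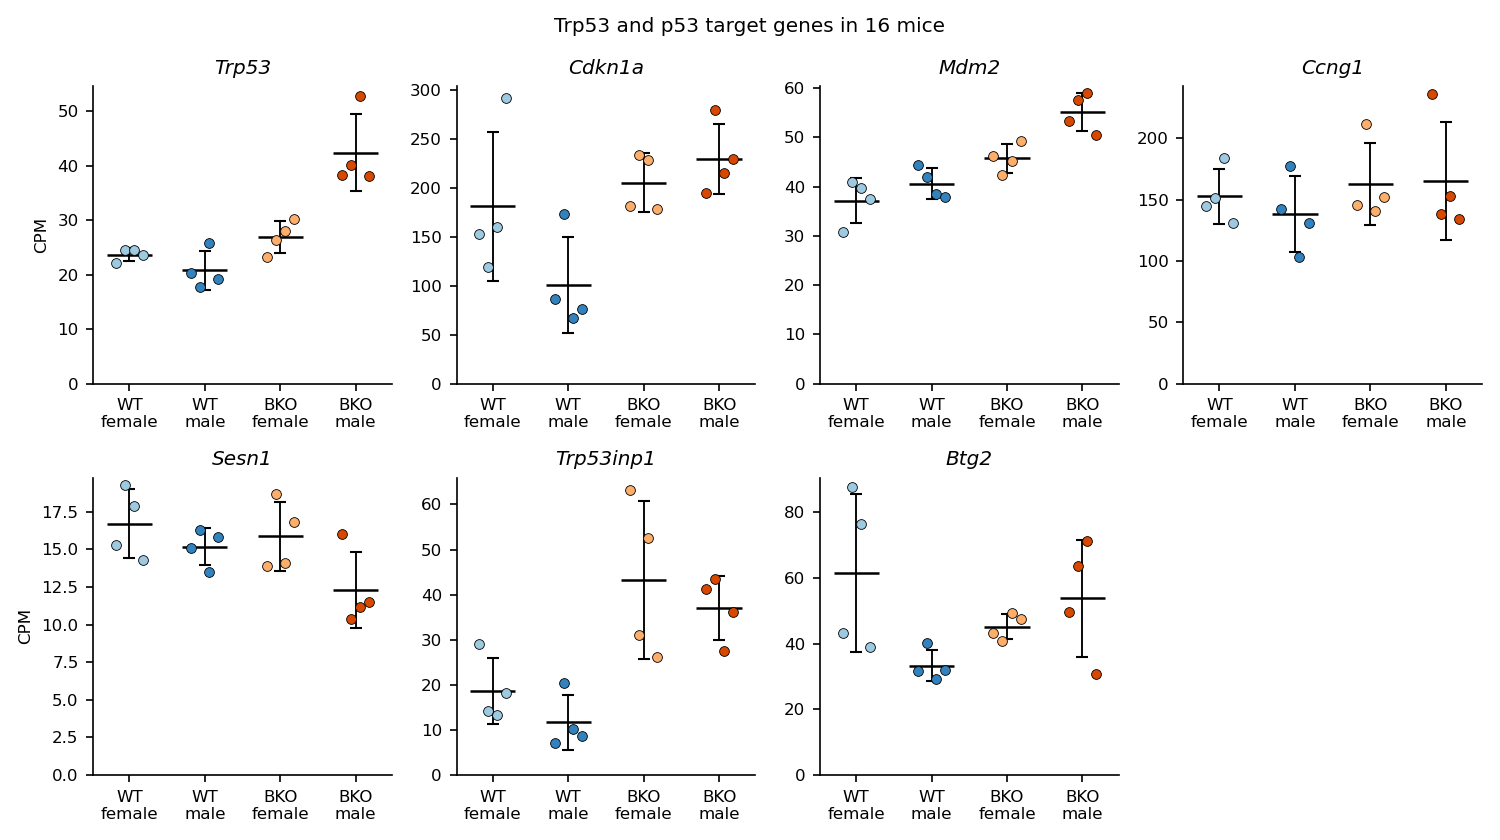
CPM of *Trp53* and of the 6 p53 target genes on linear axes from 0, by genotype and sex, with 1 point per mouse, horizontal lines for the mean and bars for the SD (n = 4). *Trp53* was at 38.1 to 52.9 CPM in OPA1 BKO males and at 30.2 CPM or less in all other mice, and WT female 4 had the highest *Cdkn1a* level of all mice with 292 CPM.

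Set side by side, 8 of the 10 genes had a log2 fold above 0 with TMM and 2 (*Gadd45g* and *Sesn1*) below 0, and these 2 signs turned under library size alone and limma on TPM. Their median was 0.49, or 0.37 without *Gadd45a*, compared with 0.010 for all genes tested. Only *Gadd45a* was above WT in all OPA1 BKO mice without overlap over both sexes, which 5.07% of all genes tested were. In females this held for 2 genes, *Gadd45a* and *Mdm2* (11.1% of all genes tested), and in males for 5, *Gadd45a*, *Trp53*, *Cdkn1a*, *Mdm2* and *Trp53inp1* (16.1% of all genes tested). Since the genes were selected on this comparison, nothing is read from these shares.

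**Figure D3:**
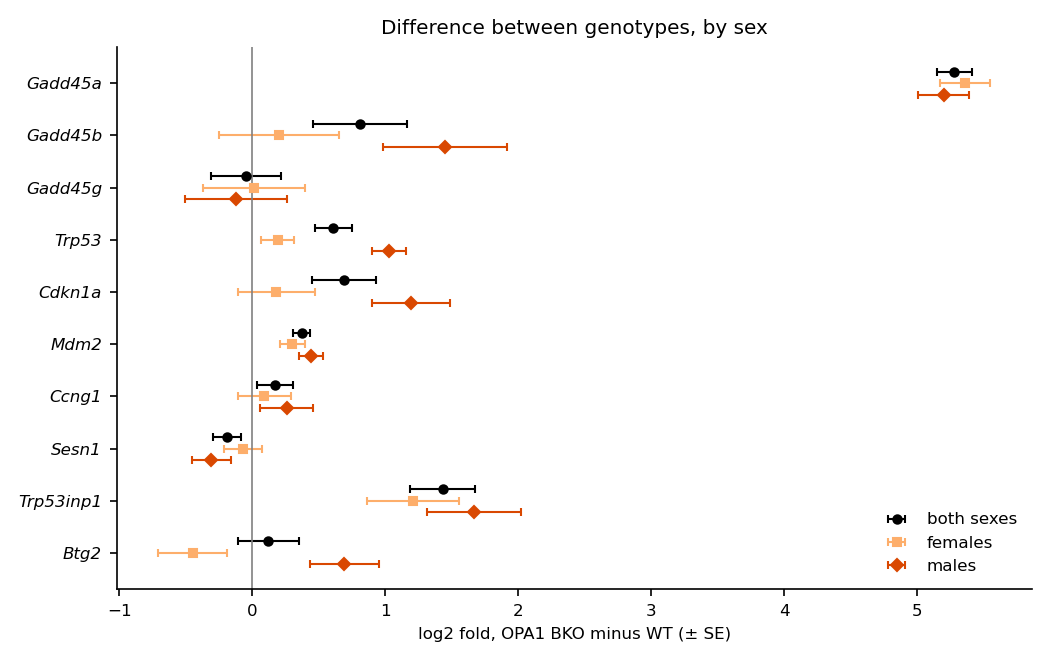
Log2 fold of OPA1 BKO against WT mice with its SE, from the edgeR fits, for both sexes (n = 8 per genotype), females and males (n = 4 per genotype). *Gadd45a* lay at 5.28 with both sexes side by side, whereas *Trp53*, *Cdkn1a*, *Gadd45b* and *Btg2* had larger values in males than in females.

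The choice of the genes did not use differences between the sexes, and these were tested with the quasi-likelihood method of edgeR and Benjamini-Hochberg adjustment over all genes tested. Within OPA1 BKO mice 1 of the 10 genes passed, *Trp53*, where 3.85% of all genes tested passed (602 genes). Its level was 27.0 ± 2.89 CPM in females and 42.4 ± 7.06 CPM in males (SD, n = 4), a female-minus-male log2 difference of -0.65 ± 0.126 (SE, edgeR adjusted p = 0.0124), with all 4 males above all 4 females. Over the 23 other settings the adjusted p ranged from 0.000177 with DESeq2 to 0.047 without the pair of mice with the most muscle transcripts. Without OPA1 BKO male 3, the highest mouse, the difference was -0.53 (edgeR adjusted p = 0.0397). *Mdm2* was at 45.7 ± 2.88 CPM in females and 55.1 ± 3.87 CPM in males, with no overlap and a log2 difference of -0.27 ± 0.0922 (SE), and did not pass (edgeR adjusted p = 0.115). *Sesn1* lay the other way, at 15.9 ± 2.32 CPM in females and 12.3 ± 2.51 CPM in males, with overlap, and its log2 difference of 0.37 ± 0.145 (SE) did not pass either (edgeR adjusted p = 0.162, over a range of 0.05 without OPA1 BKO male 1 to 0.349 without OPA1 BKO male 3). *Gadd45a* differed by 0.26 ± 0.152 (SE, edgeR adjusted p = 0.363), so a sex difference was not detectable.

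Within WT mice none of the 10 genes passed by edgeR, where 0.23% of all genes tested did (36 genes). *Btg2* was at 61.5 ± 24.1 CPM in WT females and 33.2 ± 4.80 CPM in WT males (SD, n = 4), a log2 difference of 0.89 ± 0.261 (SE, edgeR adjusted p = 0.125). *Cdkn1a* was at 181 ± 76.3 CPM in WT females and 101 ± 48.9 CPM in WT males, a log2 difference of 0.85 ± 0.291 (SE, edgeR adjusted p = 0.174). DESeq2 called both, with an adjusted p of 0.0213 for *Btg2* and 0.0487 for *Cdkn1a*, over ranges of 0.0213 to 0.266 and 0.0246 to 0.416 across the settings tried. *Cdkn1a* also passed without WT male 2 (1.23, edgeR adjusted p = 0.0246), and was farthest from passing without WT female 4 (0.50, adjusted p = 0.416).

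The interaction asked whether the difference between the genotypes was itself different in the 2 sexes. None of the 10 genes passed by edgeR, where 0.115% of all genes tested did (18 genes). *Trp53* was the nearest, with an effect in females minus that in males of -0.84 ± 0.180 on the log2 scale (SE, edgeR adjusted p = 0.063). It passed with DESeq2 (adjusted p = 0.00319), with library size alone (0.0326) and with limma on TPM (0.0112), and its adjusted p reached 0.14 without WT male 1. *Btg2* had an interaction of -1.14 ± 0.367 (SE, edgeR adjusted p = 0.199) and *Cdkn1a* of -1.01 ± 0.409 (SE, edgeR adjusted p = 0.307). *Gadd45a* had 0.16 ± 0.245 (SE, edgeR adjusted p = 0.832).

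Macrophage markers differed by genotype and were highest in the mouse with the most *Trp53*. For comparison, 20.8% of all genes tested rose in OPA1 BKO mice and 20.2% fell. Of 8 markers 7 rose in OPA1 BKO mice and *Fcgr1* did not pass, with *Lyz2* at 1.91 ± 0.248, *Itgam* at 1.91 ± 0.220 and *Adgre1* at 1.34 ± 0.252 on the log2 scale (SE, edgeR adjusted p = 1.92e-05, 6.18e-06 and 0.000523). Their summed level was 84.4 to 121 CPM in WT mice, 117 to 323 CPM in OPA1 BKO females and 190 to 478 CPM in OPA1 BKO males. OPA1 BKO male 3 had the highest sum and also the highest *Trp53* and *Gadd45b*. OPA1 BKO male 4, with a sum of 190 CPM below that of 3 of the 4 OPA1 BKO females, had a *Trp53* level of 38.1 CPM, above all of these females. The part of these markers in the level of *Trp53* and *Gadd45b* was not tested.

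Other markers moved as well, beside the 20.8% of all genes tested that rose and the 20.2% that fell. Of 8 lymphocyte markers 4 fell, such as *Cd79a* at -1.29, and none rose, and of 6 endothelial markers 4 fell, such as *Tie1* at -0.68 ± 0.0627 (SE, edgeR adjusted p = 5.5e-07), and none rose. Of 7 markers of fibroblasts and preadipocytes 4 rose, such as *Pdgfra* at 0.49 ± 0.135 (SE, edgeR adjusted p = 0.00803). Among 8 adipocyte markers 1 rose (*Pparg*) and 3 fell (*Adipoq*, *Fabp4* and *Cidea*). *Ucp1*, which defines the brown adipocyte, had means of 4758 CPM in WT mice and 3436 CPM with the deletion. The genotypes overlapped and it did not pass (-0.46 ± 0.199, SE, edgeR adjusted p = 0.0738). None of 6 skeletal muscle markers passed by edgeR, with log2 folds of 1.29 to 1.62 and an SE of at least 1.08, and their summed level ranged from 2.86 CPM in OPA1 BKO female 3 to 10831 CPM in OPA1 BKO female 2 and 13567 CPM in OPA1 BKO male 1. Whether muscle in the dissected tissue set the *Ccng1* level was not tested.

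**Figure D4:**
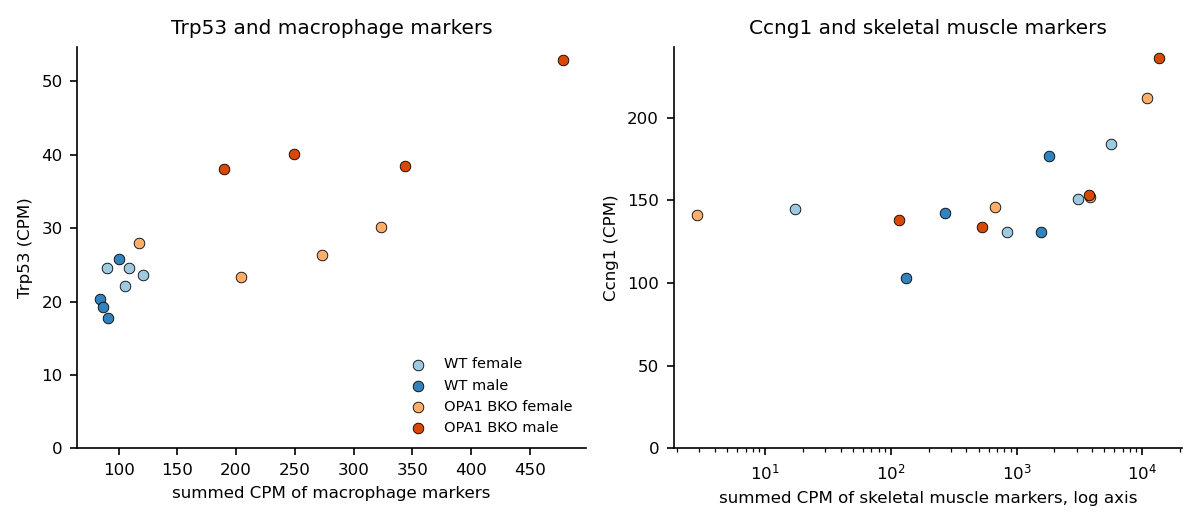
*Trp53* CPM against the summed CPM of 8 macrophage markers, and *Ccng1* CPM against the summed CPM of 6 skeletal muscle markers on a log axis, with 1 point per mouse colored by genotype and sex. The 4 OPA1 BKO males lay above the OPA1 BKO females in *Trp53* over overlapping marker sums, and the 2 mice with marker sums of 10831 and 13567 CPM had the highest *Ccng1* levels.

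The order of the 10 genes by level was compared in TPM, within each genotype. In WT mice *Gadd45g* (82.9 ± 33.8 TPM) and *Cdkn1a* (72.2 ± 42.4 TPM) led, followed by *Ccng1* (36.6 ± 7.44 TPM), *Btg2* (15.6 ± 7.61 TPM), *Mdm2* (14.8 ± 1.51 TPM) and *Trp53* (11 ± 1.76 TPM; SD, n = 8). At the low end were *Sesn1* (5.21 ± 0.754 TPM), *Gadd45a* (2.68 ± 0.718 TPM), *Trp53inp1* (2.45 ± 1.21 TPM) and *Gadd45b* (1.44 ± 0.552 TPM). The order of the leading pair was not shared by all mice, with *Gadd45g* above *Cdkn1a* in 6 of 8, and *Btg2* was above *Mdm2* in 3 of 8 and *Gadd45a* above *Trp53inp1* in 5 of 8. In OPA1 BKO mice *Cdkn1a* (210 ± 38.9 TPM), *Gadd45a* (185 ± 28.9 TPM) and *Gadd45g* (154 ± 52.7 TPM) led, and *Cdkn1a* was above *Gadd45a* in 6 of 8 mice and *Gadd45a* above *Gadd45g* in 5 of 8. *Gadd45a* thus went from the eighth place to the top group, while *Gadd45b* was last in both genotypes (5.01 ± 3.05 TPM in OPA1 BKO mice). TPM are not compared between the genotypes, since they add up to the same total in every mouse and the mitochondrial share differed.

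The rest of the p53 program was described with 48 further target genes, of which 44 were tested. In OPA1 BKO mice 17 of these rose (38.6%), 5 fell (11.4%) and 22 did not pass, and with library size alone, where the median gene was at 0.57, 39 rose and none fell. Among all genes tested 20.8% rose and 20.2% fell, and the median log2 fold of the targets was 0.19 against 0.010 for all genes. In 5 targets (*Bid*, *Polh*, *Rchy1*, *Tigar* and *Trp53cor1*) all OPA1 BKO mice were above all WT mice, a share of 11.4% beside 5.07% of all genes tested. None of the targets lay below without overlap, as 4.89% of all genes tested did. The list was written with earlier results of these data known and is not independent evidence.

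Growth arrest and feedback genes rose in 4 of 11 cases and fell in none. *Trp53cor1*, a long noncoding RNA next to *Cdkn1a* on chromosome 17, went from 0.699 to 4.54 CPM, a log2 fold of 2.69 ± 0.227 (SE, edgeR adjusted p = 2.11e-07), with 2.71 in females and 2.66 in males. *Psrc1* rose by 1.30 ± 0.439 (SE, edgeR adjusted p = 0.0256) at a low level. *Plk3*, a kinase of the stress response, had means of 9.57 CPM in WT mice and 14.9 CPM with the deletion and did not pass (edgeR adjusted p = 0.0685). *Mdm4*, the partner of MDM2, had a log2 fold of -0.12, *Ccng2*, the relative of *Ccng1*, of -0.20 and *Sfn*, which encodes 14-3-3 sigma, of -0.41, and none of these passed.

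Apoptosis genes rose in 8 of 15 cases and fell in 3. The proapoptotic *Bid* rose most, from 4.87 to 15.7 CPM (log2 fold 1.57 ± 0.177, SE, edgeR adjusted p = 4.57e-06), by 1.04 in females and 2.11 in males. *Eda2r*, a TNF receptor family member, rose by 1.16 ± 0.380 (SE, edgeR adjusted p = 0.0218) and *Pmaip1*, which encodes NOXA, by 1.16 ± 0.285 (SE, edgeR adjusted p = 0.00393), the latter below 1 CPM in both genotypes on average. *Ei24*, *Triap1* and *Siva1* fell, with log2 folds of -0.38, -0.33 and -0.25. As background, TRIAP1 is known to inhibit apoptosis and SIVA1 to promote it.

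DNA repair genes rose in 3 of 7 cases and fell in 1. *Polh*, a translesion polymerase, rose by 0.54 ± 0.0867 (SE, edgeR adjusted p = 0.000133), *Polk* by 0.27 and *Pcna*, a GADD45 partner, by 0.23, while *Ddb2* fell by 0.42 on the log2 scale. *Xpc* (0.19), *Rrm2b* (0.02) and *Ercc5* (-0.11) did not pass. Metabolism and autophagy genes rose in 2 of 11 cases, and *Aldh4a1* fell. *Tigar*, a fructose bisphosphatase that limits glycolysis, went from 16.7 to 36.6 CPM (1.12 ± 0.101, SE, edgeR adjusted p = 4.66e-07) and *Lpin1*, a lipid phosphatase, rose by 0.54 ± 0.172 (SE, edgeR adjusted p = 0.0197). *Sesn2*, the sestrin known as an ISR gene and relative of *Sesn1*, was at 36.6 and 43.4 CPM and did not pass (edgeR adjusted p = 0.161). Neither did *Ddit4* (-0.46 ± 0.342, SE) and *Cpt1c* (-0.25 ± 0.233, SE).

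**Figure D5:**
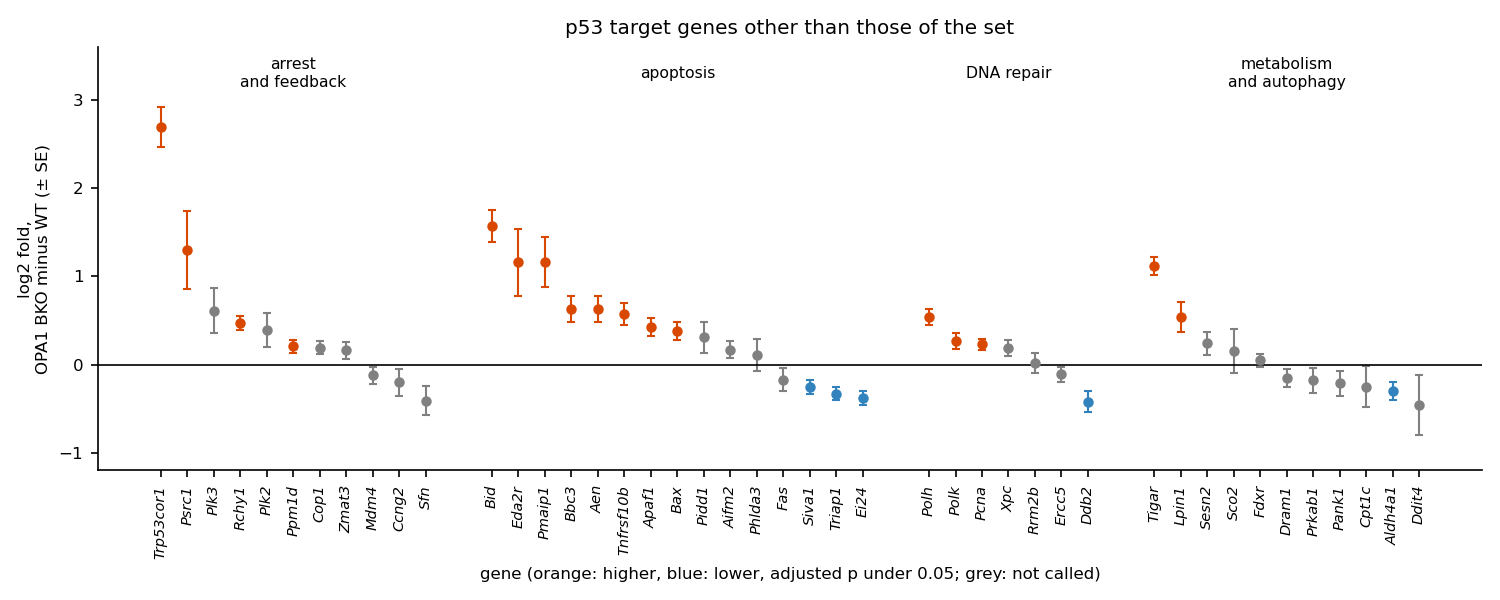
Log2 fold of OPA1 BKO against WT mice with its SE (n = 8 per genotype) for the 44 further p53 targets tested, grouped by function and sorted within each group, where orange marks genes that rose, blue genes that fell and gray genes that did not pass. The 17 genes that rose reached 2.69 (*Trp53cor1*), below the 5.28 of *Gadd45a*.

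Of the 44 targets 2 differed between the sexes within OPA1 BKO mice, a share of 4.55% near the 3.85% of all genes tested. They were *Bid* (female-minus-male log2 difference -1.16, edgeR adjusted p = 0.00143) and *Bax*, its partner at the mitochondrial membrane (-0.54, edgeR adjusted p = 0.0438), both higher in males.

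Regulators and relatives of p53 rose in 4 of 10 cases and fell in none, beside 20.8% and 20.2% of all genes tested. *Hipk2*, a kinase that phosphorylates p53, rose by 1.12 ± 0.246 (SE, edgeR adjusted p = 0.00174), and the DNA damage kinase gene *Atr* by 0.45 ± 0.0803 (SE, edgeR adjusted p = 0.000344). The checkpoint kinase genes *Chek1* and *Chek2* had log2 folds of -0.14 and -0.20 and did not pass, nor did *Usp7* (0.01) and *Trp63*, the p53 relative (0.54 ± 0.570, SE). Among CDK inhibitors other than *Cdkn1a*, 1 of 5 rose and 3 fell. *Cdkn2b* rose by 1.5 ± 0.242 (SE, edgeR adjusted p = 0.000147), whereas *Cdkn2c* fell from 76.2 to 39.6 CPM (-0.95 ± 0.128, SE, edgeR adjusted p = 2.76e-05) and so did *Cdkn1c* (-0.57) and *Cdkn2d* (-0.54). *Cdkn1b*, a relative of *Cdkn1a*, had 0.17 and did not pass, and *Cdkn2a* was too low to be tested.

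Few close relatives of the 10 genes passed, where 20.8% of all genes tested rose and 20.2% fell. Of 12 such genes none rose and 2 fell, *Cdkn1c* and *Gadd45gip1*, which encodes a GADD45-binding mitochondrial ribosomal protein (-0.29 ± 0.112, SE, edgeR adjusted p = 0.0443). *Trp53inp2* had means of 378 and 433 CPM in the 2 genotypes, a log2 fold of 0.20 ± 0.0843 (SE, edgeR adjusted p = 0.0743), against 1.43 for *Trp53inp1*. The relatives of *Btg2* ranged from 0.15 for *Tob1* to -1.05 for *Btg3*, with *Btg1* at -0.10 and *Tob2* at -0.28, and none passed. *Sesn3* had 0.16 and did not pass.

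Of 16 genes for GADD45 partners and the MAP kinase branch, 4 rose and 2 fell, beside 20.8% and 20.2% of all genes tested. *Cdk1* rose by 1.44 ± 0.361 (SE, edgeR adjusted p = 0.00446) at a low level, and *Mapk8*, which encodes JNK1, by 0.33 ± 0.0726 (SE, edgeR adjusted p = 0.00182). *Mapk11* (-0.37) and *Gadd45gip1* fell, and *Map2k6* had -0.66 ± 0.266 and did not pass (SE, edgeR adjusted p = 0.0581), nor did *Ccnb1* (0.45 ± 0.325, SE). Proliferation genes rose in 8 of 10 cases, none fell, and *Mki67* went from 2.06 to 9.32 CPM (2.11 ± 0.289, SE, edgeR adjusted p = 3.25e-05). *Aurkb* rose by 2.17 and *Bub1* by 2.09 at low levels and *Mcm5* by 0.65, while *Ccne1* (0.05) and *Ccnb1* did not pass. The cells that carried these low levels were not identified in whole tissue.

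Genes of the ISR and others known to act on or beside *Gadd45a* rose in 11 of 14 cases and fell in 2. The shares over all genes tested were 20.8% and 20.2%. *Trib3*, a pseudokinase gene and ATF4 target, had the largest log2 fold of the list with 4.84 ± 0.173 (SE, edgeR adjusted p = 8.7e-12), from 9.67 to 275 CPM. *Atf3* rose by 2.95 ± 0.373 (SE, edgeR adjusted p = 1.54e-05) and *Ddit3*, also known as *Gadd153*, by 2.79 ± 0.125 (SE, edgeR adjusted p = 1.97e-10). The forkhead factor gene *Foxo1* and *Cebpb* fell, with -0.87 ± 0.223 (SE, edgeR adjusted p = 0.00519) and -0.72 ± 0.145 (SE, edgeR adjusted p = 0.000928). *Egr1* was at 40.1 and 32.6 CPM with an SE of 0.656 and did not pass. Of 16 immediate early genes, a class that *Btg2* belongs to, 3 rose (among them *Atf3* and *Myc*) and 2 fell (*Klf2* and *Klf4*), while *Fos* (1.05 ± 0.910, SE) and *Ier3* (-0.39 ± 0.272, SE) did not pass. Of 10 glucocorticoid targets 1 rose (*Mt2*) and 1 fell (*Sgk1*), while *Zbtb16* (-0.88), *Ddit4* (-0.46), *Klf9* (0.35) and *Pdk4* (0.43) did not pass.

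Genes with the pattern most like that of *Gadd45a* over the 16 mice were found among the 13598 genes whose mean reached 1 CPM, by the root mean square (RMS) difference of log2 CPM centered on each gene. They were *Trib3* (RMS difference 0.464), *Trim66* (0.538), *Prr32* (0.606), *Akr1b7* (0.69) and *Scd3* (0.71), where *Gadd45a* itself had an RMS of 2.63 around its mean. *Trim66* went from 1.61 to 50.5 CPM. *Prr32*, *Akr1b7* and *Scd3* had WT means of 0.402, 0.0138 and 0.527 CPM and reached the mean of 1 CPM only through the OPA1 BKO mice. Those most like *Cdkn1a* (own RMS 0.624) were *Nfil3* (0.266), *Sgpl1* (0.273), *Slc39a14* (0.285), *Ell2* (0.29) and *Tmeff1* (0.295). The likeness is a description, since it follows the difference between the genotypes on which the 10 genes were selected, and the points share their libraries and normalization.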

How the data were processed

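BAT RNA of 16 mice was sequenced by the authors from poly(A)-selected stranded libraries. The authors deposited, per mouse and transcript, an estimated count from Kallisto 0.45.0 (mm10 per the labels), which is not normalized and need not be whole, and a TPM, which divides by effective length and adds up to the same total in each mouse. The index used and the use of strand are not given in the sources used here. Mice were grouped by the labels of the libraries.

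Transcripts were joined to genes through GENCODE M21 by identifier without version. Of 135308 transcripts 2024 (0.483% to 0.73% of the counts per mouse) had no match and were left out. Counts were summed per gene, rounded, filtered with filterByExpr (minimum count 10, minimum total 15), TMM-normalized and fitted by edgeR 4.0.16 quasi-likelihood in R 4.3.3, with sex as a term, or with 1 mean per group of genotype and sex for the sex contrasts and the interaction. Adjustment followed Benjamini and Hochberg across every gene in the test, with calls at an adjusted p under 0.05. The scripts were tested on simulated counts. Depth is the total estimated count per mouse, and low counts carry counting error beside the spread between mice.

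The 10 genes and all lists were chosen with earlier results of these data known. All 10 are named, with the 3 highest and 3 lowest log2 folds of each list of more than 8 tested genes, relatives of the 10 genes, and the 5 genes most like *Gadd45a* and *Cdkn1a*. Of shorter lists any gene could be named, and for the cell type markers only examples are. *Rchy1* and *Bax* were named after their values were seen. Alternatives were DESeq2 1.42.0, its size factors (RLE), library size alone, no filter, no term for sex, limma 3.58.1 on log2(TPM + 0.5) at a mean TPM of at least 1, leaving out mitochondrial genes, and leaving out each mouse.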

Additional observations from a re-analysis of the deposited data

Results flagged for a closer look

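In each group of 4 mice, and for each of the 10 genes and *Opa1*, the highest and the lowest mouse were compared with the rest by Dixon's ratio, which chance exceeds in about 1 of 20 groups. Of 44 groups examined 2 exceeded it. *Trp53* was at 52.9 CPM in OPA1 BKO male 3, where the other OPA1 BKO males were at 38.1 to 40.1 CPM. The same mouse had the highest summed level of macrophage markers (478 CPM), and the part of this in its *Trp53* level was not tested. *Ccng1* was at 212 CPM in OPA1 BKO female 2, where the other OPA1 BKO females were at 141 to 152 CPM. This mouse had a summed level of skeletal muscle markers of 10831 CPM, the second highest of the 16 mice, and the part of this was not tested either.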

How the results depend on the processing

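The log2 fold of *Gadd45a* was 5.22 to 5.33 when each mouse in turn was left out. It was 5.84 with library size alone and 5.88 with limma on TPM. Relative to the median of all genes it was 5.27 with TMM, 5.27 with library size alone and 5.01 with limma on TPM. The number of further p53 targets that rose was 15 to 18 without each mouse, 39 with library size alone and 40 with limma on TPM. The number that fell was 4 to 6 without each mouse, 3 without the filter on low counts and 0 with both of these scalings. Over all genes, 3255 were higher and 3157 lower with TMM, 10869 and 373 with library size alone, and 11871 and 103 with limma on TPM. *Trp53* passed the test of sex within OPA1 BKO mice under all alternatives run, whereas its interaction passed with DESeq2, library size alone and limma on TPM and did not pass under the others.

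The numbers of all genes that passed the sex tests depended on single mice. The interaction gave 18 genes, 354 with DESeq2, 203 with library size alone, 204 with limma on TPM and 4 without OPA1 BKO female 2 and OPA1 BKO male 1, an alternative chosen after seeing the data. It gave 2 to 62 genes without each mouse, lowest without OPA1 BKO male 2 or WT male 1 and highest without OPA1 BKO male 4. Sex within WT gave 36 genes, 541 with DESeq2, and 11 to 608 without each mouse, lowest without WT female 4 and highest without WT male 2. Sex within OPA1 BKO gave 602 genes, 1172 with DESeq2, 332 without the filter, 180 without the pair named above, and 203 to 618 without each mouse, lowest without OPA1 BKO male 3. The cause was not tested. No paired analysis was possible because the labels name no pairs and the replicate numbers were given in accession order. Depth limits *Gadd45b*, which had 11 to 135 counts per mouse.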
